A study of Mus musculus with 6 samples.

Results

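Esrrb encodes estrogen-related receptor beta, an orphan nuclear receptor that binds DNA without a known natural hormone and is one of the transcription factors of naive pluripotency in mouse embryonic stem cells (mESCs). DPPA4 carries a SAP domain, binds DNA together with its partner DPPA2, and is present in mESCs and in the early embryo, where both proteins are known for promoting genes of zygotic genome activation. Cultures of mESCs contain a few 2-cell-like cells (2CLCs), which switch on MERVL retroviral elements and many genes of the 2-cell embryo while the pluripotency network is turned down.

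The locus was described here as the Esrrb gene of GENCODE vM21 (ENSMUSG00000021255.17, plus strand, chr12:86361117-86521628 in mm10, 160.5 kb) with 100 kb on each side, a window of 360.5 kb. All DPPA4 peaks that touched this window were taken: 34 peaks of the GFP-negative list and 6 of the GFP-positive list, 40 of 138244 peaks in all. GFP-negative and GFP-positive peaks overlapping by 1 bp or more were merged, which gave 37 of 99695 regions. A region with peaks of both lists is called common, and a region with peaks of 1 list only is called GFP-negative-specific or GFP-positive-specific. Of these, 31 were GFP-negative-specific, 3 were common and 3 were GFP-positive-specific, and no region held more than 1 peak of a list. The locus was chosen by its number of peaks present in the GFP-negative list alone, so that number and the share it gives are a description. The outermost regions inside the window, both GFP-negative-specific, lay 41.97 kb from its upstream edge (−log10 q 1.371) and 12.08 kb from its downstream edge (2.843). The nearest regions outside lay 19.33 kb before the upstream edge (common) and 47.5 kb past the downstream edge (GFP-negative-specific).

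The cells were BL6/129 hybrid mESCs of the line EHMT2-dTAG-mcherry-mervl-gfp, kept in FBS/LIF, with a degron and an mCherry reporter at the end of Ehmt2 and a GFP reporter driven by a MERVL promoter, as lines picked from single clones. All groups received dTAG for 72 h, which removes the histone methyltransferase EHMT2, so both cell states here are EHMT2-depleted and no untreated cells enter the comparison. The 6 samples were 2 DPPA4 libraries of GFP-negative cells (mESCs), 2 DPPA4 libraries of GFP-positive cells (2CLCs) and 2 IgG controls, 1 from GFP-negative and 1 from bulk cells. In CUT&RUN, a nuclease is tethered by an antibody to sites bound by the protein, and the fragments it frees are sequenced. The replicates of each DPPA4 group were pooled into a single peak list, so the 2 lists hold no spread between replicates, no test was possible, and the intervals given below cover counting error only. RNA was not measured in these libraries, so the Esrrb starts in use are not known from them.

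Sequences from the parts of the locus that are contrasted below are printed first. They are from the RefSeq mouse assembly GRCm38.p6, which carries the mm10 chromosome sequence, on the plus strand and 5′ to 3′. The first is the promoter of the first annotated start (Esrrb-204), which had no peak in either list, and the second that of the internal start shared by Esrrb-202 and Esrrb-203, which lay in a GFP-negative-specific region. The third is the stretch just upstream of the Esrrb-206 start, which lay in a common region. The fourth and the fifth are the summits of the strongest GFP-negative-specific regions, in intron 3 and intron 1. Capitals mark CG dinucleotides, the sites of DNA methylation.
Esrrb-204 promoter, chr12:86360867-86361166: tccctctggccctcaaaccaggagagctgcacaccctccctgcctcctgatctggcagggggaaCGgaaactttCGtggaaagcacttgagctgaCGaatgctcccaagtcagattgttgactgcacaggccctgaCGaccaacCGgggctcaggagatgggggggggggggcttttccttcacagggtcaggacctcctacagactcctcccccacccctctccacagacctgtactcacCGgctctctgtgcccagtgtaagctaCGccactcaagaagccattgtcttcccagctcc
Esrrb-202 and Esrrb-203 promoter, chr12:86421394-86421693: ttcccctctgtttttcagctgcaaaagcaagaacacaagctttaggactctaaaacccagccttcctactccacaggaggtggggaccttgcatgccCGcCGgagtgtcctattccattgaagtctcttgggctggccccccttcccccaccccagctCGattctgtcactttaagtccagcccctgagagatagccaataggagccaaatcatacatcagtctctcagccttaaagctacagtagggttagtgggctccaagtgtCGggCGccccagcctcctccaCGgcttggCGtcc
Upstream of the Esrrb-206 start, chr12:86470016-86470116: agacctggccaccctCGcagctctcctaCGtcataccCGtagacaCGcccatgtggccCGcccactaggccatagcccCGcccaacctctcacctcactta
Intron 3 summit, chr12:86498833-86498933: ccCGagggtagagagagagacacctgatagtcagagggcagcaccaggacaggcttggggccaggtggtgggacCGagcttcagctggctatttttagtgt
Intron 1 summit, chr12:86466313-86466413: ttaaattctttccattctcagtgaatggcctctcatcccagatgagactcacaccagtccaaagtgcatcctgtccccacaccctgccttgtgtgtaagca

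Within the gene body the GFP-negative list had 26 peaks and the GFP-positive list had 4. The GFP-negative peaks covered 13.75% of the gene body and the GFP-positive peaks 1.169%, whereas over all chromosomes the lists covered 2.53% and 2.097%. Of the regions in the window, 83.78% (31 of 37, exact 95% interval 67.99 to 93.81) had GFP-negative peaks only, beside 46.7% of all regions. Counted by peak, 91.18% of the GFP-negative peaks (31 of 34, exact interval 76.32 to 98.14) had no overlapping GFP-positive peak, beside 55.7% of the whole list. The absence of a partner was not restricted to weak peaks. MACS2 gives each peak a −log10 q, the significance of its summit over local background, and a fold enrichment over that background. At a −log10 q of at least 5, 8 of 10 GFP-negative peaks at the locus had no partner (80%, exact interval 44.39 to 97.48), beside 28.8% of such peaks in the whole list. At a −log10 q of at least 10, the count was 4 of 4 (exact interval 39.76 to 100), beside 15.7%. Of the GFP-positive peaks, 3 of 6 had no GFP-negative partner (50%, exact interval 11.81 to 88.19), beside 33.5% of that list. The GFP-negative list is the longer of the pair (83602 against 54642 peaks), and with its 54642 strongest peaks alone kept, 18 of 21 GFP-negative peaks at the locus had no partner (85.71%, exact interval 63.66 to 96.95), beside 42.8% of the shortened list. These shares include the values that selected the locus and are not evidence apart from that selection.

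**Figure D1:**
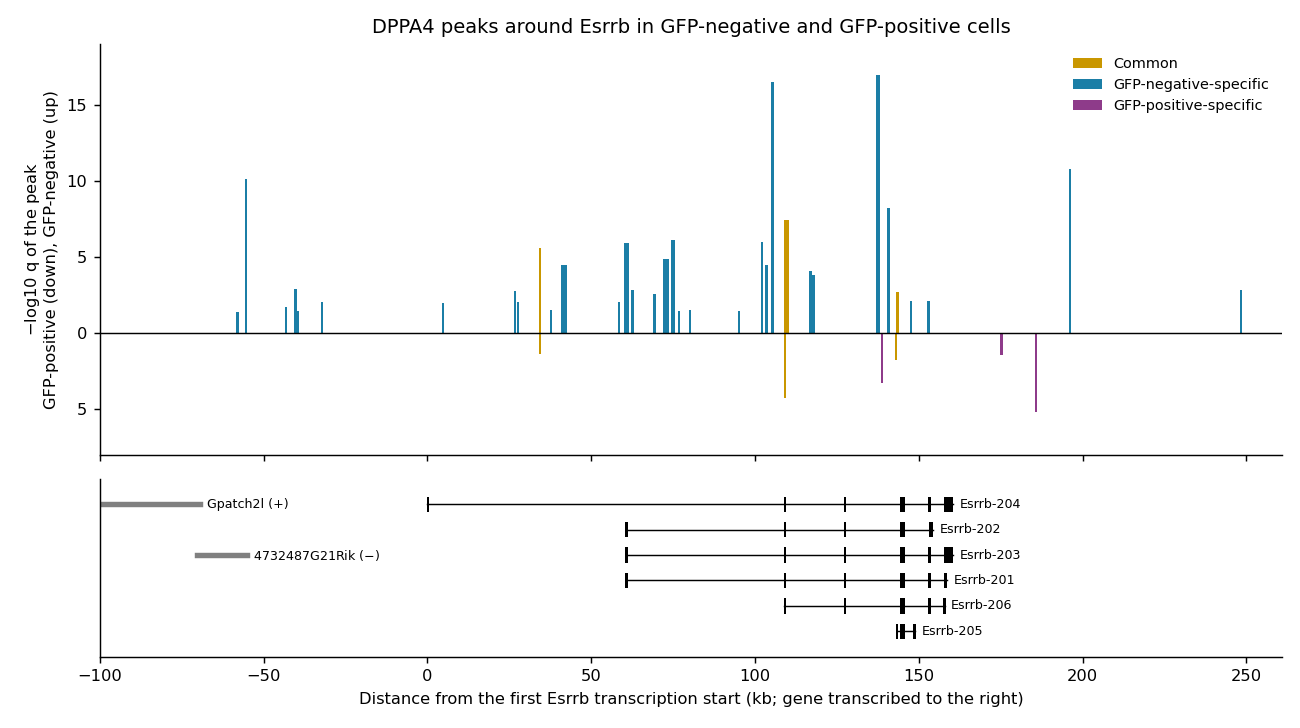
Peaks of both lists over the Esrrb window, by distance from the first Esrrb start in kb. Bars give the −log10 q of each peak, upward for the GFP-negative list and downward for the GFP-positive list, coloured by class, with bars under 0.7 kb drawn at that width, and the lower panel draws the 6 annotated Esrrb transcripts and 2 neighbouring genes with exons as blocks. Blue bars stand along intron 1, with gaps of up to 22.08 kb between neighbouring summits, and only 6 bars point down.

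The GFP-negative-specific regions lay mostly in introns of Esrrb. By summit, 21 of 31 were intronic (67.74%, exact interval 48.63 to 83.32), beside 40.9% of all GFP-negative-specific regions. In promoters there were 4, beside 20.2%, 6 were intergenic, beside 32.47%, and 0 were in exons, beside 6.498%. The window was built around a gene of 160.5 kb with 4.3 kb of exons in its longest transcript. These shares were not adjusted for that make-up. Of the 21, 20 were in Esrrb and 1 in an intron of 4732487G21Rik, and 3 of the 4 promoter summits were at Esrrb starts. A promoter is counted here from 2.5 kb upstream to 0.5 kb downstream of an annotated start. Of the 31, 23 lay in the gene body, 6 in the upstream flank and 2 in the downstream flank. Intron 1, which at 108.6 kb makes up most of the gene, held 17 of them, or 1.565 per 10 kb. Intron 2 held 2 over 17.99 kb, intron 3 held 2 over 17.15 kb, and intron 5 held 2 over 7.77 kb. The short introns 4 and 6 held none. The upstream flank, at 0.6 per 10 kb, and the downstream flank, at 0.2 per 10 kb, were sparser than intron 1.

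The 5 distinct starts of Esrrb differed in their DPPA4 peaks. The first start, that of Esrrb-204, was bare: the nearest GFP-negative peak began 4333 bp away and the nearest GFP-positive peak 34254 bp away. The region closest to it, chr12:86365450-86366112 in intron 1, was weak, with a −log10 q of 1.999 and a fold of 3.342. The internal starts of Esrrb-202 and Esrrb-203, 60.53 kb into the gene, and of Esrrb-201, at 60.77 kb, all lay in a single GFP-negative-specific region of 1630 bp (chr12:86421170-86422799). Its summit was 20 bp downstream of the Esrrb-202 start, with a −log10 q of 5.891 and a fold of 3.946, and the nearest GFP-positive peak was 25374 bp away. A weaker GFP-negative-specific region of 775 bp stood upstream of it (chr12:86419174-86419948), with its summit 1821 bp before the Esrrb-202 start, a −log10 q of 2.034 and a fold of 3.219. The starts of Esrrb-206, at exon 2, and Esrrb-205, in intron 3, lay in common regions. Peaks at the starts thus differed within the gene: none at the first, a GFP-negative peak alone over the internal starts, peaks of both lists over the Esrrb-206 start, and a GFP-negative peak over the Esrrb-205 start with a GFP-positive peak 250 bp from it.

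The sequence around the starts differed as well. In the 1001 bp centred on each, there were 23 CpG at the Esrrb-204 start, 55 at that of Esrrb-202 and Esrrb-203, 60 at that of Esrrb-201, 47 at that of Esrrb-206 and 7 at that of Esrrb-205. In the 300 bases printed above, which end just after the start, the Esrrb-204 promoter and the Esrrb-202 promoter each held 7 CpG, equal to the median of 7 over 32851 RefSeq promoters. The additional CpG around the internal start thus lay outside the printed stretch. The first start had 57.24% GC and the Esrrb-202 start 58.04%.

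The 3 common regions were all in the gene body. The widest was the Esrrb-206 start with exon 2 (chr12:86469919-86471514, 1596 bp), where the −log10 q was 7.46 (GFP-negative list) and 4.264 (GFP-positive list), with folds of 5.109 and 4.326. The GFP-positive peak within it spanned 494 bp and its summit fell in exon 2. The second common region was in intron 1, 34.4 kb into the gene (chr12:86395135-86395832, 698 bp), with a −log10 q of 5.574 against 1.375 and a fold of 5.166 against 3.231. The third covered the Esrrb-205 start (chr12:86503971-86505027, 1057 bp), with a −log10 q of 2.69 against 1.752 and a fold of 3.957 against 3.206. There the GFP-positive peak was 183 bp wide and ended 250 bp before the start, with its summit 322 bp before it, while the GFP-negative summit lay 467 bp after it. Read numbers after filtering are not known for either list, so the values of the 2 lists are given side by side and were not compared. All 3 were below the median −log10 q of the 34856 common regions, which was 9.489 for GFP-negative and 5.386 for GFP-positive peaks.

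The 3 GFP-positive-specific regions were 1 in intron 3 and 2 downstream of the gene. The one in intron 3 (chr12:86499532-86500306, 775 bp) had a −log10 q of 3.292 and a fold of 3.888 and lay only 234 bp from the strongest GFP-negative-specific region. All of its bases were soft-masked in the reference, that is, marked as repeat, and the masked block at its summit was 865 bp long. The 31-base words of the region occurred at a median of 638 places in the genome, against a median of 1 in each of the other 36 regions. Fragments from such sequence were placed by the aligner at a single best or random copy, so this peak does not tell which copy was occupied. Over all GFP-positive-specific regions, 36.53% had a summit copy number of 2 or more, beside 5.797% of GFP-negative-specific regions. The downstream regions, in single-copy sequence, were chr12:86536187-86536525, with a −log10 q of 1.46 and a fold of 3.002, and chr12:86546568-86547286, with a −log10 q of 5.182 and a fold of 5.161. The gene body therefore held no GFP-positive-specific region in single-copy sequence.

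Among the GFP-negative-specific regions, a few were far stronger than the rest. The strongest was in intron 3, 137.8 kb into the gene (chr12:86498163-86499297, 1135 bp), with a −log10 q of 16.96 and a fold of 8.916. Next was a region of 589 bp in intron 1, 3754 bp upstream of the Esrrb-206 start (chr12:86466162-86466750), with a −log10 q of 16.49 and the highest fold of the locus, 9.571. By −log10 q alone, these regions exceeded 97.87% and 97.69% of all GFP-negative-specific regions. Another 2 regions that reached a −log10 q of 10 were outside the gene, 1 downstream at 195.9 kb from the first start (chr12:86556899-86557617, 10.78, fold 6.189) and 1 at the start of the noncoding RNA gene 4732487G21Rik (chr12:86305542-86306077, 10.1, fold 6.626). The last lay 55.35 kb upstream of Esrrb, its summit 239 bp into that gene.

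A further 4 GFP-negative-specific regions had a −log10 q between 5 and 10. The region 2362 bp upstream of the Esrrb-205 start (chr12:86501493-86502323) reached 8.236 with a fold of 4.153. In intron 1 the region at 74.53 kb (chr12:86435431-86436647) reached 6.137 and the region at 102.1 kb (chr12:86463038-86463327) reached 5.974, and the internal promoter described above completes the set. The latter at 102.1 kb was only 290 bp wide and, with the regions at 103.4 kb (4.494) and 105.2 kb (16.49), formed a group of 3 within the last part of intron 1. The next values were 4.844 at 72.39 kb (chr12:86432934-86434902) and 4.494 both at 41.81 kb (chr12:86401920-86403628) and at 103.4 kb (chr12:86464350-86465152). The other 20 ranged in −log10 q from 1.371 to 4.111. Of the 31, 23 were under 5 and 8 were under 2, and the lowest value in the whole list was 1.304.

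The GFP-negative-specific regions of Esrrb varied in width. Their median was 719 bp (quartiles 442 and 868, range 195 to 1969), beside 480 bp over all 46538 GFP-negative-specific regions, a value inside the 95% interval of the Esrrb median (454 to 831). Their median −log10 q was 2.835 beside 2.588, and their median fold 3.759 beside 3.686. Of the 31, 5 were at least 1000 bp wide, 11 were at most 500 bp and 3 were at most 300 bp. The widest were 1969 bp at 72.39 kb, 1709 bp at 41.81 kb and 1630 bp at the internal promoter. Width did not follow strength throughout, since the 589 bp region at 105.2 kb had nearly the highest −log10 q and the widest region only 4.844.

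The GFP-negative-specific regions stood close together. Their number in the window selected the locus and bears on their spacing, so the spacing is a description. The median spacing of neighbouring GFP-negative-specific summits was 4742 bp (quartiles 2324 and 12178, range 534 to 52543), beside 11512 bp over the genome, and within the gene body it was 3592 bp. Of 30 spacings, 6 were at most 2 kb, 15 at most 5 kb and 20 at most 10 kb. Along the chromosome they came in 6 runs without a GFP-positive peak in between, of 9, 14, 3, 1, 2 and 2 regions. The run of 14 reached from 37.79 kb to 105.2 kb, through the internal promoter to the end of intron 1. The median distance from a GFP-negative-specific region to the nearest GFP-positive peak was 23378 bp (range 234 to 75276). Of these regions, 1 lay within 500 bp, 6 within 5000 bp and 14 within 10000 bp of such a peak. The same distances over all GFP-negative-specific regions are not given here, so these values have no background.

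**Figure D2:**
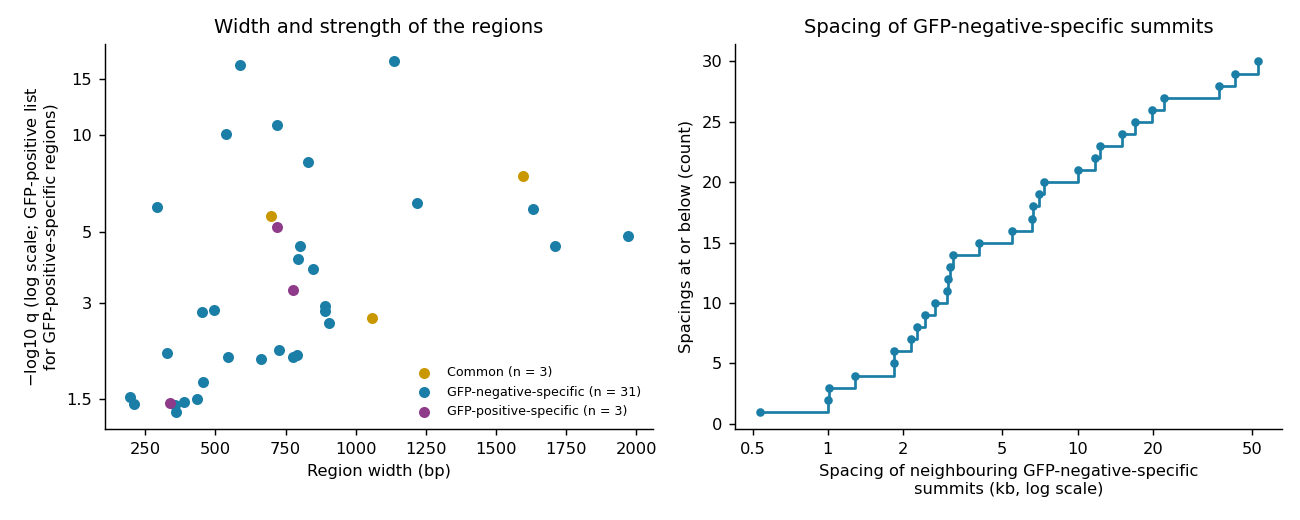
Left, width in bp and −log10 q (log axis) of the 37 regions, with 1 point per region coloured by class. The −log10 q is from the GFP-positive list for GFP-positive-specific regions and from the GFP-negative list for all others. Heights are thus not comparable between these. Right, the number of the 30 spacings between neighbouring GFP-negative-specific summits at or below each distance (kb, log axis), which reaches 15 by 5 kb and 20 by 10 kb.

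By median, GFP-negative-specific summits before the Esrrb-201 start held more CpG than those after it, with overlapping ranges. Those before it include summits at annotated starts, such as the internal promoter, 20 bp downstream of the Esrrb-202 start. In the 200 bp around each summit, the 6 GFP-negative-specific regions of the upstream flank had a median of 2.5 CpG per 100 bp (range 2 to 4), and the 7 between the first start and the Esrrb-201 start a median of 3.5 (range 2 to 7.5). The 10 between the Esrrb-201 and Esrrb-206 starts had a median of 1.5 (range 0 to 2). The 6 from the Esrrb-206 start to the gene end had a median of 0.75 (range 0.5 to 2.5). In the downstream flank, the 2 regions had a median of 1 (range 0 to 2). The most CpG-rich summits were the internal promoter, with 7.5 per 100 bp, the common region at exon 2, with 6.5 at its GFP-negative and 7.5 at its GFP-positive summit, and the region at 41.81 kb, with 6.5. The 2 strongest GFP-negative-specific regions held fewer, 1.5 at the intron 3 summit and 0 at the intron 1 summit printed above. Over all 31, the median was 2 CpG per 100 bp, beside 1.5 over all GFP-negative-specific regions, and the median GC content was 53% (range 40.5 to 63.5), beside 52.5%. All common regions together, taken at the midpoint between the summits of both lists, had medians of 5 CpG per 100 bp and 60.5% GC. A mean of 13.32% of bases were soft-masked, beside 17.59%, and none of the 31 summits was in sequence of 2 or more copies.

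**Figure D3:**
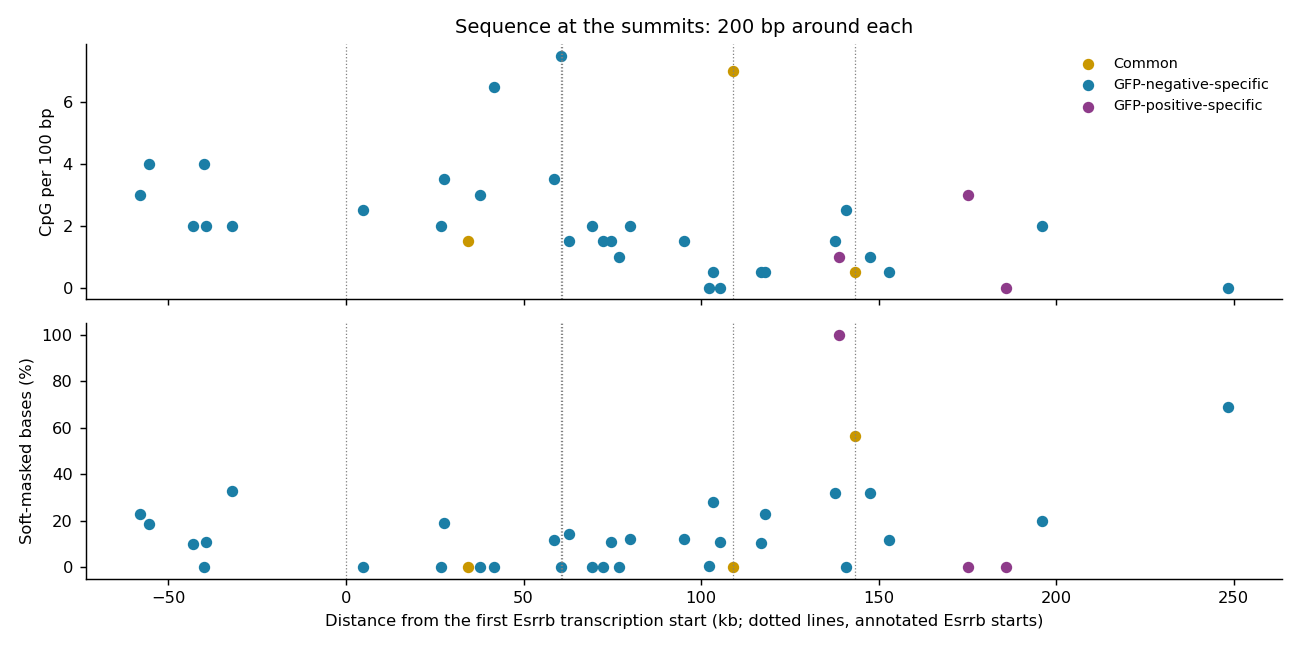
CpG per 100 bp (upper panel) and percent of soft-masked bases (lower panel) in the 200 bp around each summit, by distance from the first Esrrb start in kb, with 1 point per region coloured by class (common regions midway between their GFP-negative and GFP-positive summits) and dotted lines at the annotated starts. Summits before the internal starts hold 2 or more CpG per 100 bp except for the common region at 34.4 kb, and the GFP-positive-specific region of intron 3 is at 100% soft-masked.

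The letters bound by ESRRB itself were found at the summit of 1 GFP-negative-specific region near the 3′ end of the gene. The 9 letters TCAAGGTCA, an estrogen-related receptor element, were searched on both strands in the 200 bp around each summit. They lay 16 bp from the summit of the region upstream of the Esrrb-205 start, which is printed here with the element in capitals.
GFP-negative-specific region upstream of Esrrb-205, chr12:86502033-86502093: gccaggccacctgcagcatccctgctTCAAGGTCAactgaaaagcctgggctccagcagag

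The element was thus in 1 of 31 GFP-negative-specific summits (3.226%), beside 1.24% of all such summits. It was not found in the 200 bp around the called summits of the 3 common regions in either list. Away from the summits, it occurred once more in the region upstream of Esrrb-205, 326 bp before the summit, and once in the region at 4.664 kb, 187 bp before the summit. In the common region at the Esrrb-205 start it lay 353 bp before the GFP-negative summit and 436 bp after the GFP-positive one. The letters CCACACCC, bound by KLF factors, were in 4 of 31 GFP-negative-specific summits (12.9%), beside 6.369% of all. They included the summits at 102.1 kb and 105.2 kb, and the intron 1 summit printed above carries them 30 bp from its centre. The octamer ATTTGCAT of POU factors was in 2 of 31 (6.452%), beside 2.452%, in introns 2 and 5. The STAT letters TTCCNGGAA were in 0 of 31, beside 0.9047%. Neither of the Esrrb promoters printed above held any of the 4 motifs, which were in 0.4231% (ESRRB), 1.735% (POU), 3.562% (KLF) and 1.148% (STAT) of all promoters. A match shows the letters only, and with 1 to 4 matches these shares carry wide counting error.

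Against other genes, Esrrb ranked high in the number, the density and the share of its GFP-negative-specific regions. Its 31 regions were percentile 97.05 of the counts over all protein-coding genes. It had 8.599 of them per 100 kb of window, which was percentile 88.4 among 21938 protein-coding genes (median 2.309) and percentile 94.28 among 2659 genes with a gene body 0.5 to 2 times as long. Its share of 83.78% was percentile 97.85 among the 13520 genes with at least 10 regions in their window (median 44.44%). Windows of neighbouring genes overlap, and the locus was selected for this property, so these ranks are a description. Only 3 of its regions were common, or 0.8321 per 100 kb, beside 1.279 over the genome.

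The surrounding chromosome differed. In the 1 Mb upstream of the window there were 4.4 GFP-negative-specific regions, 2.3 common ones and 1 GFP-positive-specific one per 100 kb. In the 1 Mb downstream these densities were 4.2, 4.7 and 5.7. Averaged over these spans, GFP-negative-specific regions, by whose number the locus was chosen, were thus denser within the Esrrb window than on either side. Common regions were sparser than on either side. Single 50-kb bins outside came near or above those of the window. From the first Esrrb start, the bin from 500 to 550 kb held 12 GFP-negative-specific regions and that from −750 to −700 kb held 8. The fullest bin of the window, from 50 to 100 kb, held 9. Gpatch2l, the only other protein-coding gene that touched the window, held no region in the part of it inside the window. Its start, 119.3 kb upstream of the first Esrrb start, lay outside the window in the common region nearest to the upstream edge.

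**Figure D4:**
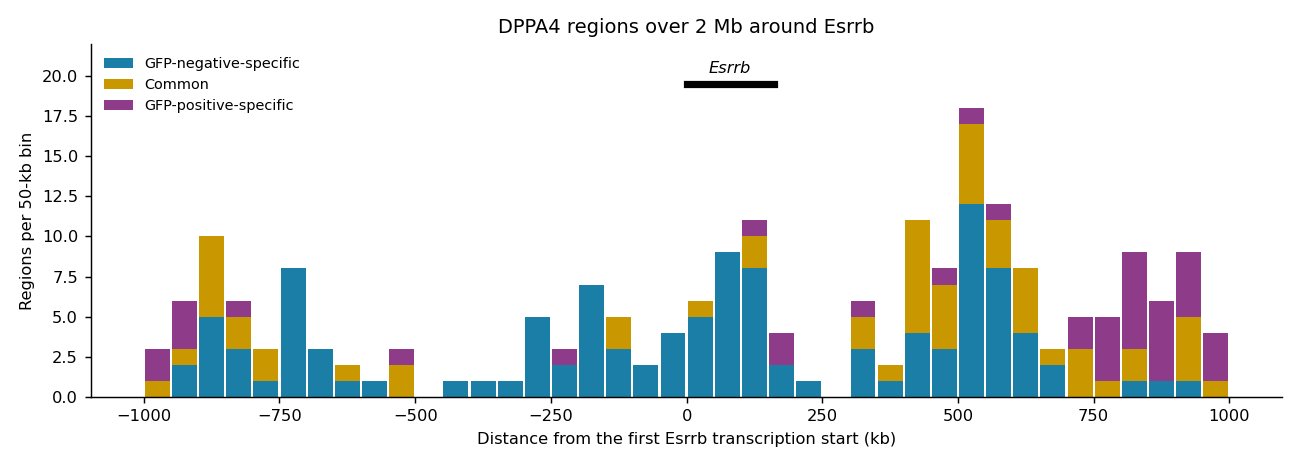
Regions per 50-kb bin by distance from the first Esrrb start (kb), stacked by class, with the gene drawn as a black bar. Bins over the gene are mostly GFP-negative-specific, while GFP-positive-specific regions gather beyond 700 kb downstream.

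Among 13 other genes of naive pluripotency, the pattern at Esrrb was shared by some and not by others. Of these, 6 had more GFP-negative-specific regions per 100 kb than Esrrb and 2 had a higher share of them. Tbx3, a T-box factor of naive cells, had 15.88 per 100 kb and a share of 89.47%. Sox2, the partner of OCT4 on DNA, had 9.403 and 79.17%. Nanog, a homeobox factor, had a like density, 8.69, but a share of 45%, since its window also held 19 common regions. Zfp42, a zinc-finger marker of naive cells, had none. Of the related receptors, Esrra had 4.743 per 100 kb and a share of 23.26%, both below Esrrb, and Esrrg had a low density, 1.116, with a share of 81.82%, near that of Esrrb. Over genes of similar length, the 5 nearest to Esrrb in the densities of the 3 classes were Tbc1d30, Grk3, Cldn10, Kirrel and Tanc1, at Euclidean distances of 0.512 to 0.8675 regions per 100 kb. Tbc1d30, the nearest, had 9.045 GFP-negative-specific regions, 1.044 common ones and 0.6958 GFP-positive-specific ones per 100 kb.

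**Figure D5:**
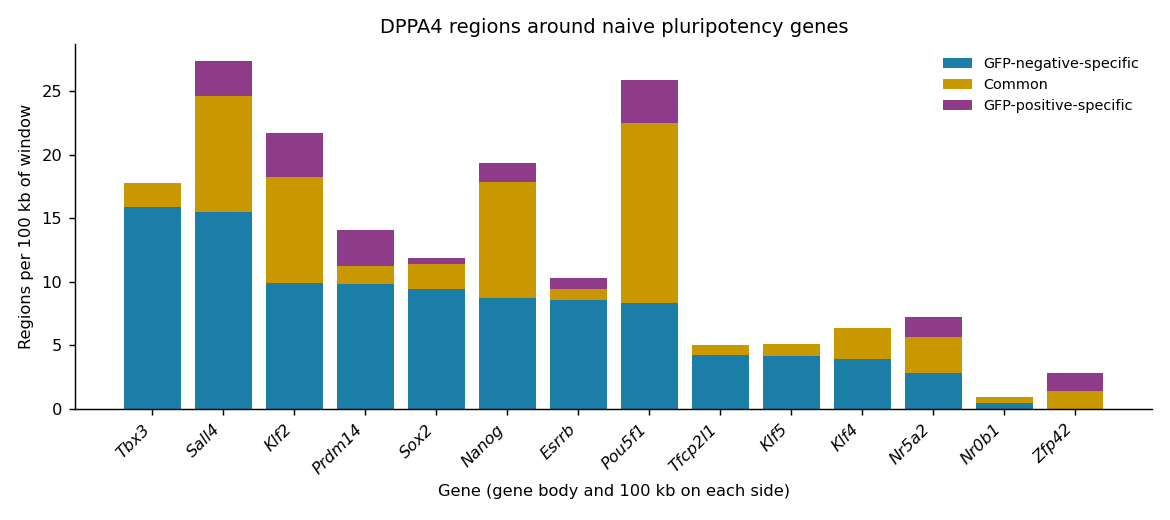
Regions per 100 kb of window (gene body and 100 kb on each side) for Esrrb and 13 other naive pluripotency genes, stacked by class and ordered by the GFP-negative-specific density. Esrrb stands in the middle at 8.599, with few common regions, and Tbx3 is highest at 15.88.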

How the data were processed

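CUT&RUN for DPPA4 was analysed from the authors' 2 deposited peak lists, 1 pooled list per cell state. IgG libraries were not used here. As the methods state, the authors trimmed reads with bbduk, aligned them with STAR (2.7.10; up to many matches, 1 best or random place kept), removed duplicates with Picard (2.26.0), removed blacklisted regions of mm10 and called peaks with MACS2 (2.2.6). SAMtools 1.14 and bedtools 2.30.0 are also named in the submitters' processing notes. Whether IgG served as control is not given in the sources used here. The deposited −log10 q is the authors' MACS2 significance of the summit, the deposited fold enrichment is a ratio over local background, the deposited score enters no result, and the deposited summit offset is in bp. The methods state the same nominal sequencing depth for every sample, but the reads kept behind each list after filtering are unknown, so no precision is derived from depth.

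Peaks on chromosomes 1 to 19, X and Y were merged into regions at an overlap of 1 bp, a common region being placed at the midpoint of its summits (Python 3.11.15, pandas 2.3.3, numpy 2.4.6, scipy 1.17.1). Intervals are exact binomial at 95%. Sequence was read from GRCm38.p6 (0 peaks ran past a chromosome end), with copy number as the median count of 31-base words in the genome. Scripts were tested on simulated data. Named regions were all common and GFP-positive-specific ones, the 10 strongest GFP-negative-specific ones (with a tie) and those at Esrrb promoters. Named genes came from fixed lists and a distance over the 3 densities. The locus, members and lists were chosen with earlier results of these data known. Other overlaps, thresholds, windows and list lengths were tried. Unused per-sample columns numbered 0.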

Additional observations from a re-analysis of the deposited data

Results flagged for a closer look

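Outside the mouse chromosomes, the GFP-negative list held 1570 peaks on E. coli sequence and the GFP-positive list held 0, a signal that enters no comparison at Esrrb. With the few peaks on other non-mouse sequences, the totals were 1575 and 5, and the bearing of these on the peaks at Esrrb was not tested. The methods state that the buffer that ended the nuclease digestion carried an E. coli spike-in. Why the lists differ in such peaks was not tested.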

How the results depend on the processing

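No paired analysis was possible because each cell state has 1 pooled list, with no values per replicate. For the same reason no replicate could be left out. Of 100 alternative values, 58 stayed close to the reported ones and 42 moved. The values are counts, shares, medians, densities and percentiles, none of which carries a sign, so reversals of direction were not tested. Most that moved follow from a stricter threshold, which leaves fewer peaks. With peaks of both lists kept from a −log10 q of 5, 10 regions were GFP-negative-specific, 0 were common and 1 was GFP-positive-specific, 100% of GFP-negative peaks had no partner, 5 regions were intronic and 1 intergenic, the median spacing was 26109 bp, and the density of 2.774 per 100 kb stood at percentile 80.55. At 10 in both lists, the counts were 4, 0 and 0, and the share was 100%. Of these regions 1 was in a promoter, 2 were intronic and 1 intergenic, the spacing was 58122 bp, and the density of 1.11 stood at percentile 68.31. The share of the whole list under these filters of both lists is not given here, so neither 100% has a background. In the common regions of the locus, the GFP-positive peaks had a −log10 q of 1.375, 4.264 and 1.752, so a threshold of 5 on both lists removed them as partners. With the threshold of 5 on the GFP-negative list alone, an alternative chosen after seeing the data, there were 8 GFP-negative-specific regions, 4 intronic and 1 intergenic, with a spacing of 27590 bp and a density of 2.219 at percentile 92.51. With both lists at their 54642 strongest peaks, there were 18, of which 12 were intronic and 3 intergenic, with a median width of 839 bp, a spacing of 11732 bp and a density of 4.993 at percentile 93.32. Genome-wide spacings at these settings are not given here.

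The percentile was 87.36 with an overlap of 50% of the shorter peak, 90.4 with peaks within 500 bp counted as overlapping, 92.6 with 50 kb on each side, and 90.5 in the gene body alone, where the density was 14.33 and 1 region was GFP-positive-specific. With a promoter of 1 kb upstream to 0.1 kb downstream, 1 GFP-negative-specific region was in a promoter and 1 in an exon. In 500 bp around the summits, ESRRB letters were in 2 and STAT letters in 1 of the GFP-negative-specific regions. A percentile was said to have moved when it left 87.97 to 88.82, an interval that takes the overlapping gene windows as independent. Small shifts in percentile therefore count as moves. The cause of the moves in percentile was not tested. The peak lists give no read depth, so a region absent from a list may be one whose signal fell short of its threshold.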
